A study of Mus musculus with 2 samples.

Results

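The genes described here code for the factors that start and lengthen proteins on the cytosolic ribosome of mouse cells. They were taken by symbol, as every gene whose name begins Eif1 to Eif6, Eef1 or Eef2, a rule that uses no measured value. The sex-linked pair Eif2s3x and Eif2s3y was left out. This gave 66 genes of the 43346 mouse genes in the deposited tables. One of them, Eif2c5, is annotated as a lincRNA under a symbol of the style once used for Argonaute genes, and had 0 counts in both animals. The other 65 are protein-coding.

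The animals were 2 B6NCrl pups at postnatal day 0, and 1 hindbrain was taken from each. They are labelled pup 1 (replicate 1) and pup 3 (replicate 2). Each library began with 13 pg of RNA longer than 200 nt, an amount the labels equate with 1 cell, and the labels point to a Smart-seq protocol. No treatment or mutation is named, sex is given as not collected, and both pups carry the same donor record. The libraries form 1 group, so the comparison available is pup against pup, with 1 library each and no test. Every difference below is a description of these libraries and has no replicate check. RNA of mixed cells was sequenced, so fewer cells of a type and less RNA per cell cannot be told apart.

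The libraries held 35462381 expected counts in pup 1 and 29866728 in pup 3. Levels are TPM, a share of all transcripts in which reads are scaled to transcript length, rescaled over nuclear genes. Detection means 5 or more expected counts. Differences are log2 of pup 3 over pup 1 after adding 1 to each TPM, which understates the differences of low genes. All 7 neuron markers and 6 of 6 astrocyte and radial glia markers were detected in both pups, as were 5 of 7 hindbrain Hox genes, with Hoxb2 at 0 counts in both. All 6 forebrain markers had 0 counts. Of the muscle markers, Acta1 was detected in both pups, Tnnt3 and Ckm were detected in pup 1, and Myh3 and Mylpf had 0 counts.

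Translation begins when eIF2 carries the initiator tRNA to the small ribosomal subunit, which eIF1, eIF1A and eIF3 hold open. The eIF4 factors recruit the mRNA by its cap, and eIF5 and eIF5B complete the start. During elongation eEF1A delivers each aminoacyl-tRNA, eEF1B recharges eEF1A with GTP, and eEF2 moves the ribosome along. In brain, eEF1A is made from the paralogs Eef1a1 and Eef1a2, and Eef1a2 is known to replace Eef1a1 in mature neurons after birth. Several of these mRNAs are known to start with a C followed by a run of pyrimidines, the terminal oligopyrimidine tract through which mTOR signalling controls their translation.

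Start sites of the known terminal oligopyrimidine mRNAs, and of the members with the longest tracts, are shown first because the differences described later were set beside this feature. Each line gives the 15 bases before and the 15 bases from the start annotated by RefSeq on GRCm38.p6, 5′ to 3′ on the gene's strand. Capitals mark the longest run that begins with C, goes on with at least 4 C or T, and opens within 5 bases of the annotated start.
Eif3f, chr7:108934400-108934429, plus strand: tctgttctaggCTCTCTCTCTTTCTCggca
Eef1a1, chr9:78481710-78481739, minus strand: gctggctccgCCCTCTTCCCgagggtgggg
Eif3l, chr15:79075208-79075237, plus strand: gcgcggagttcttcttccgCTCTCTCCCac
Eif2b2, chr12:85219466-85219495, plus strand: tttcaccgagcggaagttgaCCTCTCTCgg
Eif2b5, chr16:20498802-20498831, plus strand: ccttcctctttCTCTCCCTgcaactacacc
Eef2, chr10:81176616-81176645, plus strand: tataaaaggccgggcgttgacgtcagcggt
Eef1b2, chr1:63176816-63176845, plus strand: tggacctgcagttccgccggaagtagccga
Eif4b, chr15:102073758-102073787, plus strand: ggtcttcccgtcggacgccgcgccaccccc
The run was 15 bases long in Eif3f, 10 in Eef1a1, 9 in Eif3l and 8 in Eif2b2 and Eif2b5. Eef2, Eef1b2 and Eif4b, which belong to the known class, had no such run at these positions. An annotated start need not be the base at which the RNA begins, and no match says only that these letters are not in this window. Likewise, a marked run says only that these letters are in the window, and not that the RNA begins with them.

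Of the 66 genes, 54 (81.8%) were detected in both pups, where 37.8% of all protein-coding genes were. The levels of the 66 summed to 18183 TPM in pup 1 and to 12329 in pup 3. In pup 1 they took 1.85% of nuclear counts, with a 95% Wilson interval from 1.85 to 1.86%. In pup 3 they took 1.28%, with an interval from 1.28 to 1.29%. These and all later intervals reflect counting error alone, because reads copied by amplification do not stand for separate molecules. Without Eef1a1 the summed levels were 12411 and 9438 TPM. Over the 54 genes the log2 levels of the pups had a Pearson correlation of 0.85 and a Spearman correlation of 0.86, a description across genes that share each library.

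**Figure D1:**
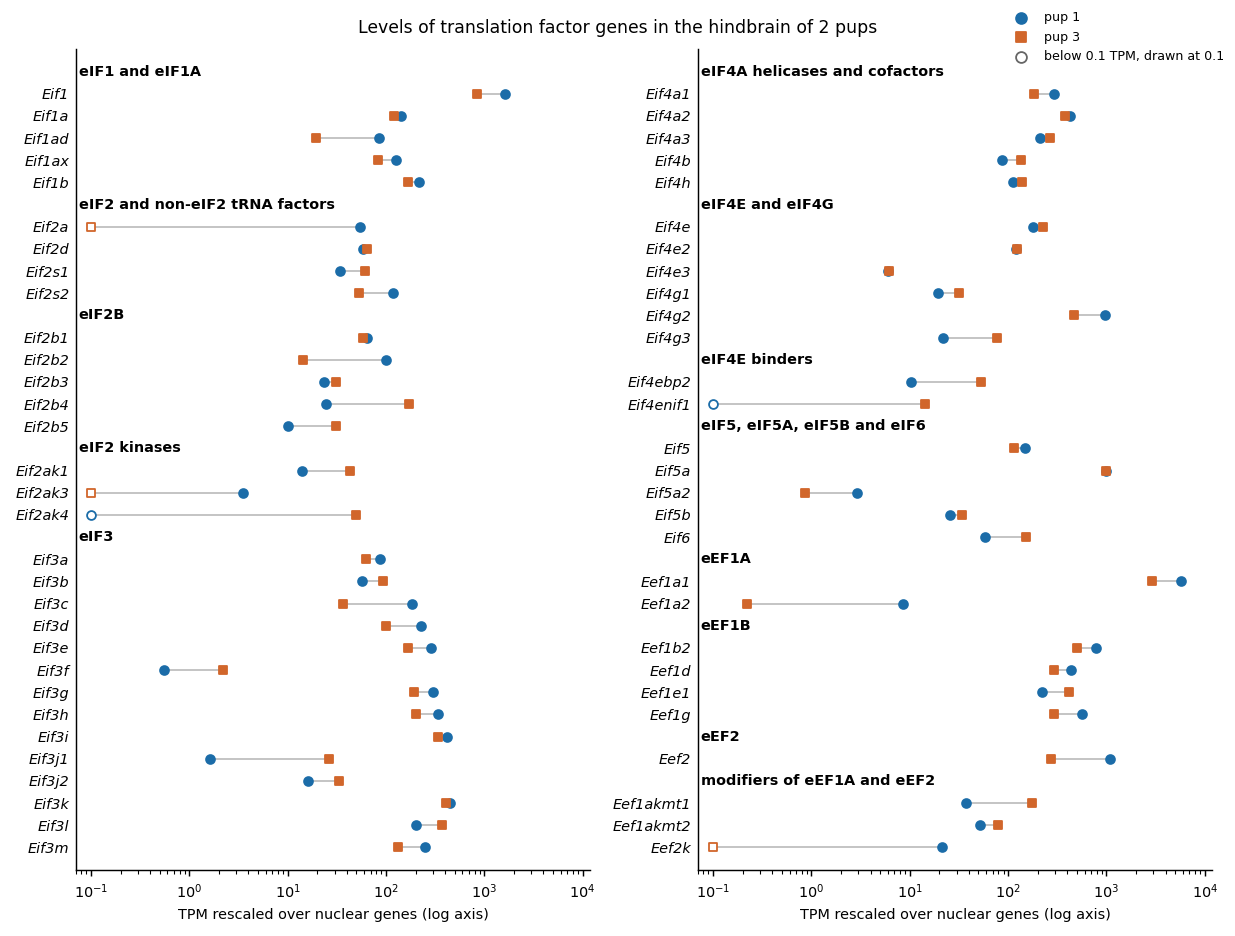
TPM of the 59 genes detected in at least 1 pup, on a log axis, by complex; circles are pup 1, squares pup 3, and open symbols lie below 0.1 TPM and are drawn there. Eef1a1 is the highest gene in both pups, Eif3f lies far below most genes of its complex and Eef1a2 far below its paralog Eef1a1. In 1 pup 5 genes have an open symbol.

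The most abundant of the genes in both pups was Eef1a1 (ENSMUSG00000037742.10, chromosome 9, 78478449 to 78489151, minus strand, mm10). Its level was 5772 TPM in pup 1 against 2891 in pup 3, 4331 ± 2037 (SD, n = 2). It ranked 4 among all protein-coding genes in pup 1 and 18 in pup 3. Of the summed level of the 66 genes it took 31.7% in pup 1 and 23.4% in pup 3, 27.6% ± 5.87 (SD, n = 2). Eef1a1 has 4 near-identical copies among annotated transcripts, and together they held 0.376% and 0.356% of its count.

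Eef1a2 (ENSMUSG00000016349.10, chromosome 2, 181147653 to 181157014, minus strand), the paralog of mature neurons and muscle, was low in both pups. It had 353 counts (8.58 TPM) in pup 1 and 8 counts (0.223 TPM) in pup 3, with an exact Poisson interval of 3.45 to 15.8 counts for the latter. The TPM of Eef1a1 was 673 times that of Eef1a2 in pup 1 and 12948 times in pup 3. On the log2 scale with 1 added, this ratio was 9.23 in pup 1 and 11.21 in pup 3, 10.22 ± 1.39 (SD, n = 2). Both paralogs were higher in pup 1, and in both pups Eef1a1 was by far the more abundant. The 7 neuron markers summed to 8822 and 6438 TPM, a sum led by Tubb3 and Stmn2. Of the 7, 3 were higher in pup 1, Rbfox3 among them, and 4 were higher in pup 3, with a median difference of 0.027. The 6 muscle markers summed to 26.9 and 44.9 TPM, most of it Acta1 at 14.2 and 44.7 TPM. The muscle markers Tnnt3, with 214 and 0 counts, and Ckm, with 37 and 4, were higher in pup 1. The part of either cell type in the Eef1a2 difference was not tested.

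The eEF1B complex, the exchange factor that returns eEF1A to its GTP form, was present in full. Eef1b2, the catalytic alpha subunit, stood at 787 and 507 TPM in pup 1 and pup 3. Eef1g, the gamma subunit, stood at 566 and 296 TPM. Eef1d, the delta subunit, stood at 434 and 297 TPM. These 3 genes were 1.46 to 1.91 times higher in pup 1, with all their transcripts counted. Transcripts annotated as non-coding, retained introns or decay targets held 51.5% of Eef1b2 in pup 1 and 35.8% in pup 3. For Eef1d they held 17.6% and 1.1%, and for Eef1g 7.72% and 21.8%. Eef1b2 also lies across the opposite-strand gene Ndufs1, which had 11370 and 4500 counts. The part of either in these differences was not tested. Eef1e1 is grouped here by its name, although its product is known as a scaffold of the multi-tRNA synthetase complex. Eef1e1 was higher in pup 3, with 224 TPM in pup 1 and 417 TPM in pup 3.

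Eef2 (ENSMUSG00000034994.9, chromosome 10, 81176631 to 81182498, plus strand), the translocase, had a level of 1077 TPM in pup 1 against 271 in pup 3. This 3.98-fold difference was the widest among the 12 genes with a mean of 300 TPM and over. In pup 1 its level was 0.187 times that of Eef1a1, and in pup 3 it was 0.0936 times.

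The enzymes that modify eEF1A and eEF2 were lower and uneven. Eef2k, the kinase that inhibits eEF2, had 1300 counts (21.2 TPM) in pup 1 and 0 in pup 3. The lysine methyltransferase gene Eef1akmt1 was at 37.4 TPM in pup 1 against 177 in pup 3. Eef1akmt2 was at 51.4 and 79.7 TPM. Eef1akmt3 and Eef2kmt had 0 counts in both pups, and 3 counts, the limit that a count of 0 allows, would be 0.0553 and 0.0627 TPM for Eef1akmt3.

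Among the initiation factors, all 5 genes of eIF1 and eIF1A were detected in both pups and had more TPM in pup 1. Of protein-coding genes 37.8% were detected in both, and of nuclear genes detected in both 46.0% had more TPM in pup 1. For Eif1a this direction turned when counts were scaled without length. Eif1 (ENSMUSG00000035530.9, chromosome 11, 100319885 to 100322096, plus strand), which guards start codon choice, stood at 1619 and 841 TPM. Of the Eif1 level, 51.0% in pup 1 and 19.5% in pup 3 was in transcripts annotated as non-coding. The paralog Eif1b stood at 218 and 169 TPM. Eif1 with all its transcripts exceeded Eif1b 7.43 times in pup 1 and 4.97 times in pup 3. Eif1a stood at 142 and 120 TPM, and its X-linked relative Eif1ax at 126 and 83.4 TPM. Eif1ad, whose product has an eIF1A-like domain, differed most in this group, with 85.7 TPM in pup 1 against 19.6 in pup 3.

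The subunits of eIF2 differed in opposite directions. Eif2s1, the alpha subunit that stress kinases phosphorylate, was at 34.1 and 61.3 TPM in pup 1 and pup 3. Eif2s2, the beta subunit, was at 117 and 53.2 TPM. Eif2d, a factor that can deliver tRNA without eIF2, was at 58.7 and 64.7 TPM, a direction that turned when counts were scaled without length.

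The exchange factor eIF2B, whose subunits form 1 complex, had all 5 genes detected in both pups at unequal levels. Eif2b1 stood at 64.8 and 58.4 TPM, and its direction turned when counts were scaled without length. Eif2b2, the beta subunit, was 6.87-fold higher in pup 1, with 99.4 TPM against 14.5 in pup 3. Eif2b4, the delta subunit, showed the opposite, with 24.5 TPM in pup 1 and 173 TPM in pup 3. Eif2b4 lies across the opposite-strand gene Snx17, which had 11393 and 1272 counts, and the strand setting of the counting was not given in the sources used here. Eif2b3 was at 23.4 and 30.7 TPM, and Eif2b5, the catalytic epsilon subunit, at 9.99 and 31.2 TPM. For Eif2b5 the direction turned when counts were scaled without length: the counts were 622 and 493, and the pups differed in the length of the transcript that led. The subunit genes thus did not keep a common ratio between the pups.

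Of the 4 kinases that phosphorylate eIF2, a different set was seen in each pup. Eif2ak1, the heme-regulated kinase, was at 14.1 TPM in pup 1 against 43.2 in pup 3. The 7 erythroid markers summed to 1486 and 3941 TPM. Of these, the 4 globin genes were detected in both pups and were higher in pup 3. Alas2, the heme synthesis enzyme of red cells, went the other way, with 909 counts (22.8 TPM) in pup 1 and 0 in pup 3, and Slc4a1, a gene of the red cell membrane, had 0 and 1 counts. The part of blood RNA in the Eif2ak1 difference was not tested. Eif2ak3, the kinase of the endoplasmic reticulum known as PERK, had 117 counts in pup 1 and 0 in pup 3. Eif2ak4, the amino acid sensor known as GCN2, had 0 counts in pup 1 and 4253 (49.4 TPM) in pup 3. Eif2ak2, the kinase activated by double-stranded RNA, had 0 counts in both.

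All 14 genes of eIF3, the largest initiation factor, were detected in both pups. Of the subunits that form its octamer core, Eif3a stood at 86.6 and 63.3 TPM, Eif3c at 185 and 36.9, Eif3e at 285 and 167, and Eif3h at 338 and 204. In the same core Eif3k stood at 448 and 405 TPM, Eif3l at 203 and 374, and Eif3m at 251 and 134. Outside the core, Eif3b stood at 57.0 and 93.0 TPM, Eif3d at 229 and 101, Eif3g at 300.2 and 194, and Eif3i at 422 and 337. Of these 11 genes 9 were higher in pup 1, and Eif3b and Eif3l were higher in pup 3. Their median difference was -0.63 on the log2 scale. Over all 14 genes of eIF3, 9 were higher in pup 1 and 5 in pup 3, with a median of -0.39. Of all nuclear genes detected in both pups, 46.0% were higher in pup 1. Within a pup the 11 spanned a 7.86-fold range in pup 1 and a 11.0-fold range in pup 3, with Eif3k highest in both.

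Eif3f (ENSMUSG00000031029.6, chromosome 7, 108934417 to 108942951, plus strand), a core subunit with the longest run shown above, stood apart from its complex. It had 13 counts (0.553 TPM, exact Poisson interval 6.92 to 22.2 counts) in pup 1 and 98 counts (2.22 TPM) in pup 3. The median of the other 13 eIF3 genes was 414 times higher in pup 1 and 60.2 times higher in pup 3. Eif3f had no near-identical copy among annotated transcripts at 95% identity over at least 200 bases. Copies without annotation were not searched for.

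The accessory subunit eIF3j is made from the genes Eif3j1 and Eif3j2, which are 99.4% identical over 2379 bases, so that their reads are uncertain individually. Eif3j1 stood at 1.63 and 26.3 TPM and Eif3j2 at 15.9 and 33.0 TPM. The posterior SD of the count reached 14.4 in pup 1 and 45.4 in pup 3. Both were higher in pup 3.

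Of the eIF4A helicases, which unwind the mRNA leader, Eif4a2 led in both pups with 427 and 383 TPM. Eif4a1 stood at 291 and 183 TPM, and Eif4a3, a helicase of the exon junction complex, at 214 and 265 TPM. Eif4a2 exceeded Eif4a1 1.47 times in pup 1 and 2.10 times in pup 3, with all transcripts of each gene counted. Transcripts annotated as non-coding, retained introns or decay targets held 24.2% of Eif4a2 in pup 1 and 43.5% in pup 3. For Eif4a1 they held 6.75% and 0.84%, and for Eif4a3 10.05% and 19.8%. The ratio of coding transcripts alone was not computed. Copies of Eif4a1 held 1.20% and 3.05% of its count. The helicase cofactors Eif4b and Eif4h were at 86.3 and 114 TPM in pup 1 and at 135 and 140 TPM in pup 3.

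Of the cap-binding genes, Eif4e stood at 181 and 228 TPM. Eif4e2, which codes for a cap-binding protein that competes with eIF4E, stood at 121 and 124 TPM. Eif4e3 stood at 6.05 and 6.16 TPM. The directions of Eif4e2 and Eif4e3 turned under at least 1 other scaling. The germ cell paralog Eif4e1b had 0 counts in both pups. The order Eif4e, Eif4e2, Eif4e3 was the same in both pups.

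Among the eIF4G scaffolds, Eif4g2 (ENSMUSG00000005610.12, chromosome 7, 111067750 to 111083030, minus strand) led. Its product, known as DAP5, lacks the eIF4E-binding region of its paralogs. It stood at 964 and 469 TPM, which was 49.4 times Eif4g1 in pup 1 and 14.8 times in pup 3. Eif4g1 stood at 19.5 and 31.6 TPM and Eif4g3 at 22.0 and 76.9 TPM. Eif4g2 was 2.06-fold higher in pup 1, and both of its paralogs were higher in pup 3.

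The eIF4E-binding proteins repress the cap-binding step when mTOR is inactive. Of their genes, Eif4ebp2, known as the main form in brain, was at 10.3 TPM in pup 1 against 53.5 in pup 3. Eif4ebp1 had 0 and 2 counts, and Eif4ebp3 had 0 in both. Eif4enif1, the eIF4E transporter, had 1 count in pup 1 against 748 (14.4 TPM) in pup 3.

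Of the late-acting factors, Eif5a (ENSMUSG00000078812.6, chromosome 11, 69916714 to 69921958, minus strand) differed least between the pups among the 12 genes with a mean of 300 TPM and over. Its product helps the ribosome past stalling sequences and carries the modified residue hypusine. It stood at 999 and 1000.3 TPM, 999 ± 1.13 (SD, n = 2). Its paralog Eif5a2 stood at 2.92 and 0.860 TPM. Eif5 stood at 149 and 115 TPM, Eif5b at 25.5 and 34.3 TPM, and Eif6, which keeps ribosomal subunits apart, at 57.9 and 152 TPM.

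In several paralog sets the abundant gene, by the level of all its transcripts, was the same in both pups. It was Eef1a1 in eEF1A, Eif1 over Eif1b, Eif5a over Eif5a2, Eif4g2 in eIF4G, Eif4e in the eIF4E set and Eif4a2 in eIF4A. Among the eIF2 kinases it changed. Eif2ak1 led in pup 1 with 14.1 TPM, and Eif2ak4 led in pup 3 with 49.4 TPM against 43.2 for Eif2ak1. The second place in the eIF4A set went to Eif4a1 in pup 1 and to Eif4a3 in pup 3.

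Between the pups, 28 of the 54 genes detected in both (51.9%) had more TPM in pup 1, where 46.0% of all nuclear genes did, and 26 had more in pup 3. Their median difference was -0.15 on the log2 scale, and that of all nuclear genes detected in both was 0.12. The 45 genes named Eif divided 22 to 23, with a median of 0.0023. Of the 9 genes named Eef, 6 were higher in pup 1 and 3 in pup 3, with a median of -0.63. Those 3 were Eef1e1, the gene of the synthetase scaffold, and Eef1akmt1 and Eef1akmt2, genes of enzymes that modify eEF1A. Without the 9 known terminal oligopyrimidine genes, an alternative added after seeing the data, the median of the members became 0.022. The direction of 7 of the 54 genes turned under at least 1 of 7 other scalings. These were Eif1a, Eif2b1, Eif2b5, Eif2d, Eif4e2, Eif4e3 and Eif5a.

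**Figure D2:**
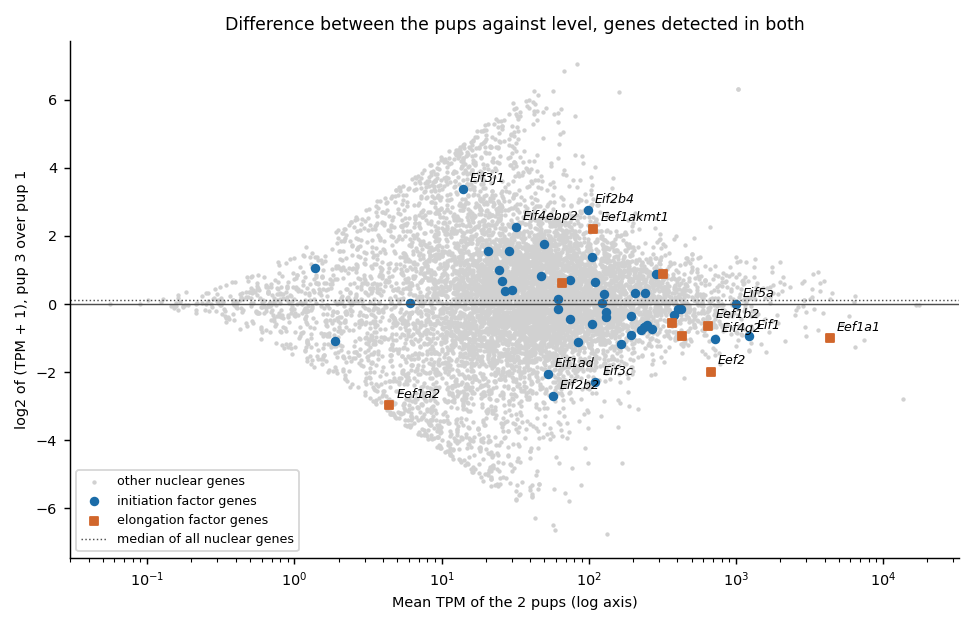
Difference between the pups (log2 of TPM + 1, pup 3 over pup 1) against mean TPM on a log axis, for genes detected in both. Grey points are other nuclear genes, circles initiation genes (named Eif) and squares elongation genes (all those named Eef). The dotted line is the median of all nuclear genes, 0.12. Eef1a1, Eef2, Eif1 and Eif4g2 lie below 0 at the right, Eif5a lies at 0, and Eif3j1 and Eif2b4 lie highest.

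The direction differed between classes of level. Of the 12 genes with a mean of 300 TPM and over, 10 had more in pup 1, where 44.7% of protein-coding genes of that level did, and the exceptions were Eef1e1 and Eif5a. Their median difference was -0.59, against 0.091 for protein-coding genes of that level. From 100 to 300 TPM, 11 of 19 genes had more in pup 1, with a median of -0.36. From 30 to 100 TPM it was 5 of 12, with a median of 0.38. From 10 to 30 TPM it was 0 of 7, with a median of 1.01, against 43.5% of protein-coding genes of that level. From 1 to 10 TPM it was 2 of 4, with a median of -0.53. The classes hold few genes, and several of them are subunits of 1 complex.

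**Figure D3:**
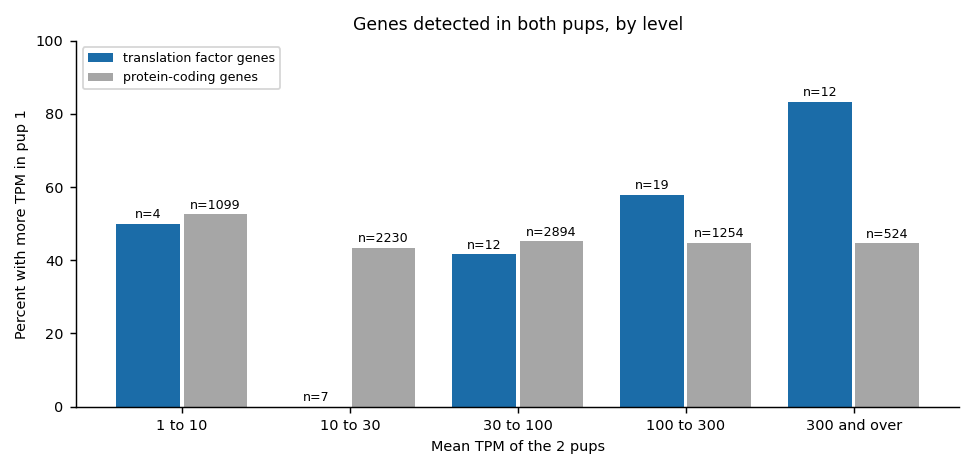
Percent of genes detected in both pups that had more TPM in pup 1 (vertical axis, from 0), by mean TPM (horizontal axis); blue bars are translation factor genes, grey bars protein-coding genes, and n is the number of genes. The blue bars run from 0 of 7 genes at 10 to 30 TPM to 10 of 12 at 300 TPM and over, with 2 of 4 at 1 to 10 TPM, while the grey bars lie between 43.5% and 52.5%.

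Larger differences were counted among the 59 genes with at least 50 counts in a pup. At least 2-fold higher in pup 1 were 12 genes (20.3%), where 34.7% of nuclear genes were. At least 2-fold higher in pup 3 were also 12 (20.3%), where 27.9% were. The other 35 genes (59.3%) lay within 2-fold, against 37.3% of nuclear genes. At least 4-fold apart were 13 genes (22.0%), against 40.7% of nuclear genes. They were Eif2a, Eif2b2, Eif2ak3, Eif3c, Eif1ad, Eef1a2 and Eef2k on the side of pup 1 and Eif2b4, Eif2ak4, Eif3j1, Eif4ebp2, Eif4enif1 and Eef1akmt1 on the side of pup 3. Of these, Eif1ad, Eif2a, Eif2b4, Eif3j1, Eif4enif1 and Eef2k lie across a gene of the opposite strand, and the part of its reads in their differences was not tested.

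Of the 59 genes, 5 (8.47%) were detected in 1 pup only, where 30.3% of nuclear genes were. Eif2a, which codes for a protein that can bring initiator tRNA without eIF2 and is not a subunit of eIF2, had 2262 counts in pup 1 and 2 in pup 3. Its share of nuclear counts was 956 times higher in pup 1, with an exact 95% interval of 264 to 7899. Eif2a lies across the opposite-strand gene Serp1, which had 2175 and 3150 counts. Eef2k was at least 366-fold and Eif2ak3 at least 33.0-fold higher in pup 1, computed from shares of nuclear counts against 3 counts in the pup 3 library. Eif2ak4 was at least 1677-fold higher in pup 3, against 3 counts in the pup 1 library. These bounds hold for reads and are not bounds on molecules, because amplified reads do not stand for separate molecules. The share of Eif4enif1 was 885 times higher in pup 3, with an exact 95% interval of 158 to 34997. The 7 genes detected in neither pup were Eif2ak2, Eif4e1b, Eif4ebp1, Eif4ebp3, Eef1akmt3, Eef2kmt and Eif2c5.

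The start tract was then set beside these differences. Of the 49 members with an entry in the RefSeq promoter table, 12 (24.5%) had the tract, and of 16317 protein-coding genes 21.8% had it. The 9 with a tract that were detected in both pups had a median difference of 0.70, with 3 higher in pup 1, where 45.8% of protein-coding genes with a tract were higher in pup 1, with a median of 0.12. The 33 without a tract had a median of -0.15, with 18 higher in pup 1, where 45.3% of protein-coding genes without one were, with a median of 0.16. Of the 9 known terminal oligopyrimidine genes, 7 were higher in pup 1, and Eif3f and Eif4b were higher in pup 3. Their median was -0.73. Of these 9, 5 had a promoter entry, and only Eef1a1 and Eif3f had such a run near the annotated start. Whether the RNA of either gene begins at that run was not tested. These genes lie at opposite ends of the range of levels.

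Transcript make-up was read for the 52 genes with at least 50 counts in both pups. In 44 of them the same transcript led in both pups, and 21 of these have 1 listed transcript. Of the 31 with several, 23 had the same leading transcript and 8 did not. The same share over all genes was not computed, so these counts cannot be called particular to the members. The protein-coding Eef1a1-201 took 84.9% of Eef1a1 in pup 1 and 71.8% in pup 3. Eef1d-207 led Eef1d with 39.6% and 40.3%, and the longer Eef1d-204 took 14.4% and 16.6%. Eif4a2-203 led Eif4a2 with 72.9% and 49.1%.

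The pups differed most in Eif2b5, where Eif2b5-201 of 3186 bases took 96.5% in pup 1 and 5.99% in pup 3, and Eif2b5-202 of 821 bases took 94.0% in pup 3. In Eif5b, Eif5b-202, annotated as a retained intron, took 78.7% in pup 1 and 17.7% in pup 3, and the coding Eif5b-201 took 82.0% in pup 3. In Eif4g2, Eif4g2-206 led in pup 1 with 58.9% and Eif4g2-213 in pup 3 with 53.3%. In Eif4ebp2, Eif4ebp2-202 led in pup 1 with 79.5% and Eif4ebp2-201 in pup 3 with 81.1%. The other genes whose leading transcript differed were Eef1akmt2, Eif1a, Eif2d and Eif4g3. Transcripts annotated as non-coding, retained introns and decay targets took at least 20% in both pups in 5 genes, Eef1b2, Eif1ax, Eif2b2, Eif2d and Eif4a2. These shares are estimates that split the reads shared by overlapping transcripts.

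**Figure D4:**
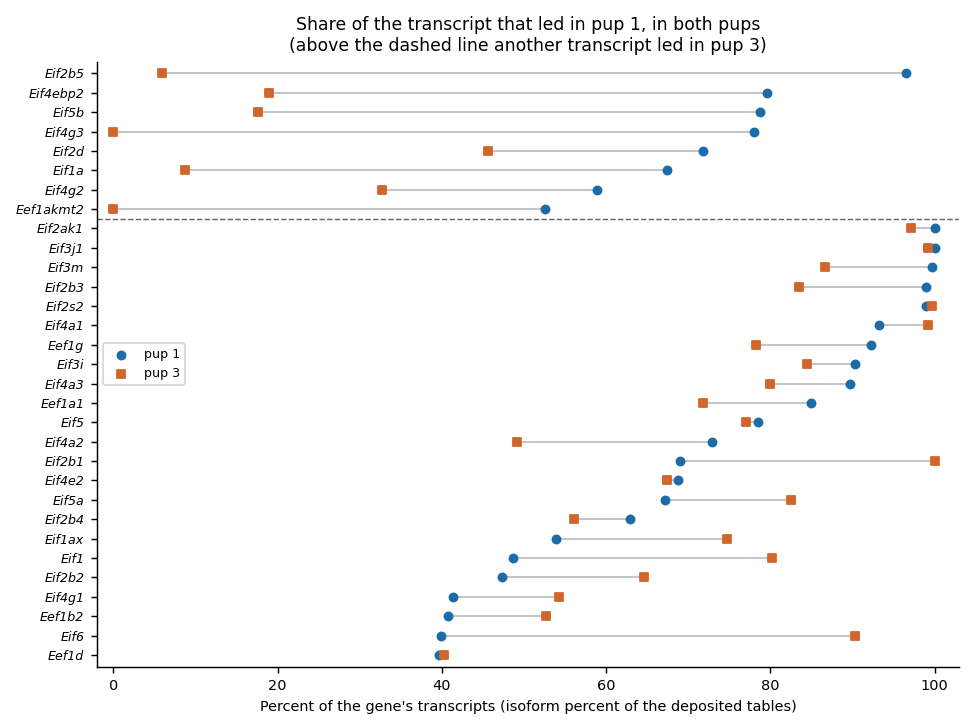
Percent of each gene's TPM in the transcript that led in pup 1 (horizontal axis), in pup 1 (circles) and pup 3 (squares), for the 31 genes with several transcripts. In the 8 genes above the dashed line another transcript led in pup 3, with the widest gap in Eif2b5, from 96.5% to 5.99%.

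Other genes of the pathway, 58 in all, were read beside the members. Of these, 45 were detected in both pups and 2 in neither, while 7 were seen in pup 1 alone and 4 in pup 3 alone. Of 21461 protein-coding genes, 8102 were detected in both, 2633 in pup 1 alone and 1170 in pup 3 alone. Of the 45 pathway genes, 20 were higher in pup 1 and 25 in pup 3, with a median difference of 0.30. Of all nuclear genes detected in both, 46.0% were higher in pup 1, with a median of 0.12. In termination and recycling, the recycling factor Abce1 stood at 106 and 50.3 TPM and the release factor Etf1 at 23.5 and 0.268 TPM. The poly(A)-binding protein gene Pabpc1 stood at 82.3 and 101 TPM, and Paip2, whose product restrains it, at 300 and 268 TPM. Of the proteins that regulate or assist initiation, Bzw1 stood at 448 and 286 TPM and Bzw2 at 342 and 370 TPM. In signalling to initiation 15 of 16 genes were detected in both pups, led by Rheb, an activator of mTOR, at 276 and 211 TPM and by Atf4, a transcription factor of the stress response, at 124 and 172 TPM. Of the enzymes that make hypusine on eIF5A and diphthamide on eEF2, Dhps stood at 129 and 106 TPM and Dph3 at 17.1 and 134 TPM. Of the selenocysteine factors, Secisbp2 stood at 0.260 and 5.45 TPM and Eefsec at 0.0565 and 0.234 TPM. Of 10 mitochondrial translation factors 5 were detected in both pups, led by Tufm at 85.7 and 115 TPM and Tsfm at 70.6 and 43.0 TPM.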

How the data were processed

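The authors deposited a gene and a transcript table per library, made on mm10 with annotation M4, as the notes deposited beside them state. Per the file headers they hold an expected count (reads shared among transcripts are split), TPM and FPKM, the percent of a gene's TPM in each transcript, and bounds of a credibility interval of TPM, recorded as a score in the deposited tables and not used. The quantifier, aligner, versions and strand setting were not given in the sources used here. Of 43346 mouse gene identifiers 98.0% matched GENCODE M21 on GRCm38, the same assembly, for symbols, types and 1-based coordinates. TPM was rescaled over 43309 nuclear genes. Log2 used a pseudocount of 1. Detection needed 5 expected counts, and counts of fold differences needed 50 in a pup. A count of 0 was replaced by a floor of 3 counts for bounds. Near-identical copies were sought among GENCODE M21 transcripts with BLAST+ 2.17.0, at 95% identity over at least 200 bases and 50% of the copy. The genome itself was not searched. Without a stated strand setting, reads of overlapping opposite-strand genes cannot be told apart, and 19 members overlap one in genomic span. Start sequences are from the RefSeq promoter table.

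No test was possible with 1 group. Every member may be named. Of other pathway lists, the rule names the 2 genes with the highest mean TPM in each. The rule for the members reads symbols only, but this gene family and the other lists were chosen with earlier results of these data known. Alternatives were other detection limits, pseudocounts, folds and minimum counts, deposited TPM, FPKM, CPM, TMM factors from edgeR 4.0.16 and size factors from DESeq2 1.42.0 on rounded expected counts, scaling over protein-coding genes and to the ERCC spike-ins, other transcript and tract settings, and each library alone. Adding copies to their member, and leaving out the known terminal oligopyrimidine genes, were added after seeing the data. The fold count was run on simulated data with counting noise alone. These had no noise of amplification and no lost molecules, so they cannot tell how the count fares on libraries of 13 pg.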

Additional observations from a re-analysis of the deposited data

How the results depend on the processing

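Of 54 alternative values, 50 kept their direction and stayed within 1.5 times a count or within the spread used for a value. Some of these could not come out otherwise. The share of Eef1a1 is the same by FPKM and by TPM. With 2 libraries, a ratio or share from either library alone always lies within 1 SD of the mean. With a fold of 4 the count of members past the fold was 13 in place of 24. Without the known terminal oligopyrimidine members, chosen after seeing the data, the median log2 difference was 0.022 in place of -0.15, a change of sign across a value near 0. The start tract was found in 23 members within 20 bases of the start (46.9%, against 54.1% of protein-coding genes) and in 5 with at least 7 pyrimidines after the C (10.2% against 5.26%), in place of 12. With each replicate alone, members detected were 57 in pup 1 and 56 in pup 3. The log2 ratio of Eef1a1 over Eef1a2 was then 9.23 to 11.21, and the share of Eef1a1 was 23.4 to 31.7%. Across scalings members higher in pup 1 numbered 28 to 31 and their median lay between -0.25 and -0.068. The median of all nuclear genes moved from 0.12 to 0.016 with TMM factors and to -0.0078 with DESeq2 size factors, and the 2-fold counts were then 15 and 11. No paired analysis was possible because the libraries form 1 group. With 1 library of 13 pg per pup, depth does not limit abundant members, and for a gene of 1000 nt effective length 3 counts are 0.145 TPM in pup 1 and 0.164 TPM in pup 3.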
